A study of Mus musculus with 64 samples.

Results

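Immunoglobulin gene segments in mouse liver were described across 4 groups of mice. The members were chosen by gene name and by their own summed counts. A row was taken when its name started with Ighv, Igkv, Iglv, Igkc, Iglc, Ighg, Ighm or Igha and when it held at least 20 counts over the 16 libraries. The names matched 216 of 53008 rows, and 10 rows reached the sum. One of these 10, Ighmbp2, encodes a DNA and RNA helicase named for a binding motif and is no immunoglobulin gene, so it was set apart and 9 members remained. The rows analysed here held no Igkc, Ighg, Ighm or Igha gene, so heavy chain isotypes were not analysed. Many V genes, such as Igkv5-45, Igkv3-5, Ighv3-1 and Iglv1, also had no row here. Of the 92 Igkv and 121 Ighv rows present, 54 and 69 held no count. All sums, shares and numbers of segments below therefore cover only the rows analysed, and those of all V genes are not known.

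Liver RNA was taken after 16 weeks on diet from mice wild type for mMgat2 (WT) and from HuMgat2 mice, a humanized line that carries human MOGAT2, an enzyme of triglyceride resynthesis from dietary fat. Each genotype was fed chow or a high-fat diet (HFD), which gives WT chow (libraries 5 to 8), WT HFD (libraries 1 to 4), HuMgat2 chow (libraries 13 to 16) and HuMgat2 HFD (libraries 9 to 12), with 4 libraries in each. The labels used here give no strain, sex, age or promoter of the human gene, and do not say that each library is a separate mouse. The libraries held between 12.4 M and 25.8 M counts each. Levels are given as CPM, counts scaled to the depth of the library with TMM factors.

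Antibodies are made by B cells and their secreting descendants, plasma cells. In each B cell clone the DNA is rearranged so that 1 variable (V) segment is joined to a joining (J) segment of the light chain, and in the heavy chain also to a D segment. A clone therefore transcribes 1 V segment per chain at a high level, while a mixed population uses many. Light chains come in a kappa form (Igkv, Igkj) and a lambda form (Iglv, Iglc), and J chain, encoded by Jchain, links secreted IgA and IgM into polymers. The liver carries polymeric IgA into bile through the receptor Pigr and holds few B cells of its own.

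The 9 members comprised 4 kappa V segments (Igkv8-16, Igkv5-39, Igkv3-10, Igkv8-27), 3 heavy V segments (Ighv3-6, Ighv1-9, Ighv1-56), the lambda V segment Iglv2 and the lambda constant gene Iglc2. The sum that chose them ran from 1595 counts for Igkv8-16 down to 20 for Igkv8-27, which lay just inside the limit, while Ighv14-4 with 17 and Ighv1-52 with 15 lay just outside. Of the other matched rows, 83 held 1 to 19 counts and 123 held none. A segment could reach the sum through 1 group or 1 library alone, so a difference between groups is in part built into the choice. In bulk liver RNA, fewer cells of a type and less RNA per cell cannot be told apart.

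The results turn on Igkv8-16, Igkv5-39 and Ighv3-6 and on the joining segments Igkj2 and Igkj5, so their reference sequences are shown, 5′ to 3′. They were read from the GENCODE M21 transcripts (GRCm38), whose lengths equalled the lengths in the count table for all 9 members. Igkv8-16 is shown from base 50 to base 349 of its transcript, beside the nearest V gene of that annotation, Gm43218 (bases 53 to 331). Capitals mark the 21 bases of Igkv8-16 that have no counterpart in Gm43218 in the alignment.
Igkv8-16: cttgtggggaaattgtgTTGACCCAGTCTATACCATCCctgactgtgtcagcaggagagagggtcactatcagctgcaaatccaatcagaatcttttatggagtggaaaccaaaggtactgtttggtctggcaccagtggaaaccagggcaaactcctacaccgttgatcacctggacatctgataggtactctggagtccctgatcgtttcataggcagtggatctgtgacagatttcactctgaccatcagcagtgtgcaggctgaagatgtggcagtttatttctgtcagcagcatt
Gm43218: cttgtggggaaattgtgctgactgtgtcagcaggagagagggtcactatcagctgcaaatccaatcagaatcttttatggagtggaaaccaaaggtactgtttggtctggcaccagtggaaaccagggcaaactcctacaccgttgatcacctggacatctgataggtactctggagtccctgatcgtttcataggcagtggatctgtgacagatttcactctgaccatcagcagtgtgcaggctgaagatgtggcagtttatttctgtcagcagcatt
Igkv5-39: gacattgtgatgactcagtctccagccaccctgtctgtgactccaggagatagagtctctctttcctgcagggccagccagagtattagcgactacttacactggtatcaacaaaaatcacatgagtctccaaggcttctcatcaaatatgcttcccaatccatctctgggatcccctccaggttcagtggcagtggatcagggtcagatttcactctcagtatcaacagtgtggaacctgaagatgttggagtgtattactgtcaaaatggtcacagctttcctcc
Ighv3-6: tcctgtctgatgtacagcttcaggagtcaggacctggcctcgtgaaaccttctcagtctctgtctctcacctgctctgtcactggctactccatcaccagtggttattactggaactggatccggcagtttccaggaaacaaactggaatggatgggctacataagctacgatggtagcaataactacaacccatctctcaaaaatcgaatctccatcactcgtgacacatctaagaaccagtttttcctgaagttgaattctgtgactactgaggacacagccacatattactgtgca
Igkj2: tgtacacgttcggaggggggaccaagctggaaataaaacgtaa
Igkj5: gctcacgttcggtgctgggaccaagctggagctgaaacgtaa

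Apart from those 21 bases, the Igkv8-16 and Gm43218 stretches were identical in 279 of 279 aligned bases. Of the 313 windows of 50 bases in the Igkv8-16 transcript, 226 (72.2%) also occur in Gm43218. No row named Gm43218 was analysed here, so reads that match both cannot be assigned, and the level given for Igkv8-16 is uncertain to that extent. The next nearest V gene, Igkv8-19, was identical in 247 of 305 aligned bases (81.0%). Igkv5-39 shared none of its 238 windows with another gene, and it matched Igkv8-16 in only 185 of 287 aligned bases (64.5%). Windows were also shared by Ighv3-6 (1.71%, with Ighv3-1), Iglc2 (7.72%, with Iglc3), Iglv2 (25.4%, with Iglv1), Ighv1-56 (38.4%, with 18 other heavy V genes), Igkv8-27 (10.4%, with Igkv8-21 and Igkv8-30) and Igkv3-10 (51.1%, with 6 other kappa V genes).

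One library stood apart from the rest before any immunoglobulin row was considered. WT HFD library 4 held 12.4 M counts. Alb, the albumin gene of hepatocytes, made up 0.850% of its counts and between 3.26% and 6.02% elsewhere. Its summed level of 9 neutrophil markers was 67.0 CPM, against 0.129 to 2.84 CPM in the others, and that of 12 macrophage markers was 995 CPM, against 162 to 424 CPM. Where a call named here was lost without it, this is said beside the call. The 8 hepatocyte markers summed to 58006 to 110414 CPM over the 16 libraries, so the labelled tissue showed its defining genes in each of them.

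The summed level of the 9 members was highest in WT HFD. In WT chow the 4 libraries stood at 0.567, 0.601, 1.31 and 0.939 CPM, with a mean of 0.856 ± 0.349 CPM (SD, n = 4). In WT HFD libraries 1 to 4 stood at 8.11, 38.4, 3.08 and 42.3 CPM, with a mean of 23.0 ± 20.3 CPM (SD, n = 4). Each WT HFD library thus lay above each WT chow library, and the WT HFD libraries spread widely among themselves. HuMgat2 chow libraries stood at 1.87, 0.721, 0.322 and 0.187 CPM, with a mean of 0.776 ± 0.765 CPM (SD, n = 4). HuMgat2 HFD libraries 9 to 12 stood at 1.79, 9.91, 1.49 and 0.493 CPM, with a mean of 3.42 ± 4.36 CPM (SD, n = 4). The HuMgat2 groups overlapped, and library 10 alone reached the range of WT HFD. Without library 4 the WT HFD mean was 16.5 ± 19.1 CPM (SD, n = 3), and without library 10 the HuMgat2 HFD mean was 1.26 ± 0.679 CPM (SD, n = 3). No test is given for these sums, since they were built from the members' own counts.

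Almost all of the WT HFD load was 1 kappa V segment. Igkv8-16 (ENSMUSG00000076591; GRCm39 chromosome 6, 70363656 to 70364222, minus strand, exons of 49 and 313 bases) encodes the variable part of a kappa light chain. Its counts were 146, 895, 61 and 492 in WT HFD libraries 1 to 4. It had 0 counts in the 4 WT chow libraries, 0 in the 4 HuMgat2 chow libraries, and 1 count in 1 HuMgat2 HFD library (library 11) with 0 in the other 3. All 4 WT HFD libraries therefore held reads of this segment and 11 of the 12 other libraries held none. In WT HFD it made up 80.3% to 97.2% of the member counts of a library.

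As levels, Igkv8-16 stood at 7.13, 37.3, 2.47 and 39.1 CPM in WT HFD libraries 1 to 4, a mean of 21.5 ± 19.4 CPM (SD, n = 4). Libraries 2 and 4 were high and libraries 1 and 3 low, and the SD was nearly as large as the mean. Pooled over each group, the level was at least 553-fold higher in WT HFD than in WT chow, where a count of 0 allows up to 3 counts over the group (0.0353 CPM), and at least 452-fold without library 4. Against HuMgat2 chow the same bound was at least 532-fold. These bounds cover counting error in the chow groups only. They leave out the spread between the WT HFD libraries, which ran from 2.47 to 39.1 CPM. Against the single count in HuMgat2 HFD the ratio was 1814, with a 95% interval of 325 to 71706 that covers counting error only. Library 2 held 37.3 CPM at an albumin share of 3.32% and a neutrophil marker level of 2.84 CPM, so a high level was not seen in library 4 alone. No other row of the table overlaps Igkv8-16, and the 4 rows within 40 kb of it held at most 2 counts each in total. None of these 4 rows was an immunoglobulin row by name. V genes without a row here could not be seen, so reads from such a gene nearby were not tested.

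**Figure D1:**
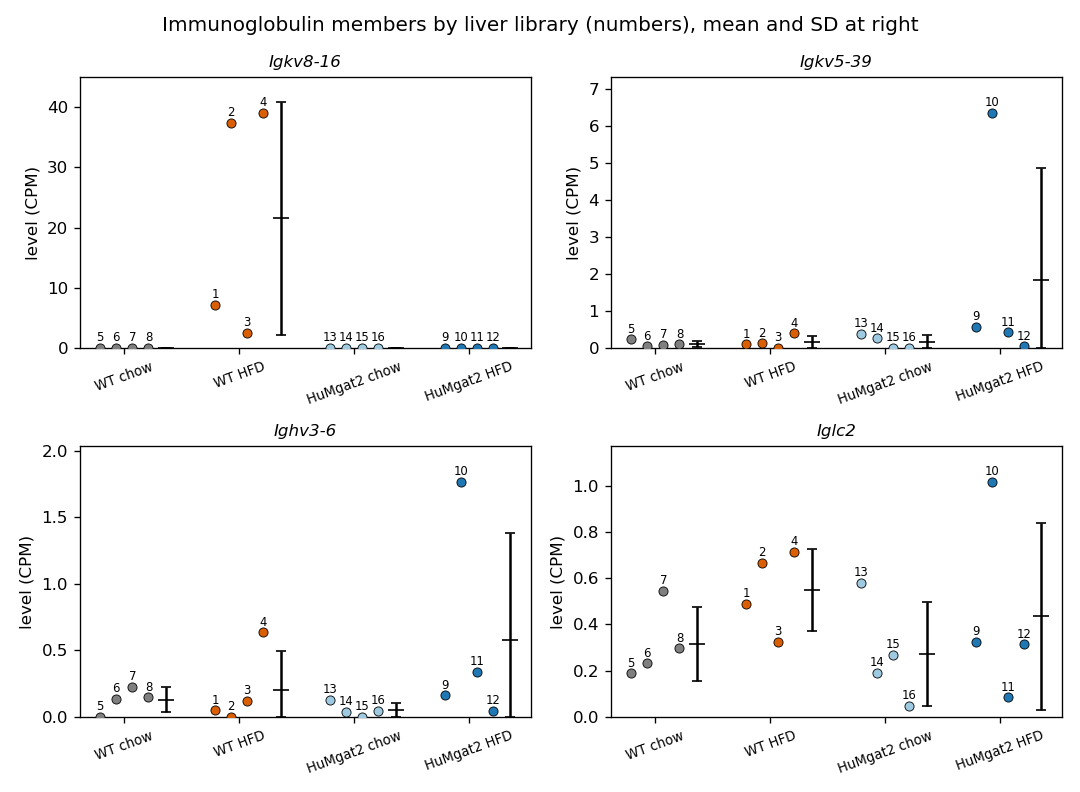
Level (CPM, linear axis from 0) of Igkv8-16, Igkv5-39, Ighv3-6 and Iglc2 in each of the 16 liver libraries, with the library number at each point; the bar at the right of each group is the mean with its SD, cut at 0. Igkv8-16 is seen in the 4 WT HFD libraries between 2.47 and 39.1 CPM, while the other 2 V segments are highest in HuMgat2 HFD library 10.

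Only 2 of the 9 members, Igkv8-16 and Iglc2, passed the filter on low counts of the edgeR quasi-likelihood test; the other 7 were not tested. Igkv8-16 passed that filter through WT HFD alone, and the group in which it was high also chose it, so its calls are a description and support nothing. In WT, 1 of the 2 tested members was called higher on HFD (Igkv8-16) and 0 lower, where 8.37% of all 17318 genes tested were called higher and 6.74% lower (adjusted p below 0.05). On HFD, 1 of the 2 was called lower in HuMgat2 than in WT (again Igkv8-16) and 0 higher, where 7.56% of all genes were called lower and 7.21% higher. In HuMgat2 mice, 0 of the 2 were called between diets, where 7.56% of all genes were called higher on HFD and 6.4% lower. On chow, 0 of the 2 were called between genotypes, where 0.266% of all genes were called higher in HuMgat2 and 0.243% lower. For the diet by genotype interaction, 0 of the 2 were called, where 2.61% of all genes were called higher and 2.26% lower. The comparisons share groups with each other and are not independent. In the last 3 comparisons the count at an unadjusted p below 0.05 was also 0 in edgeR. DESeq2 called 0, 0 and 1 of them. The call in DESeq2 was Igkv8-16 in the interaction, for which edgeR gave no usable standard error because both chow groups were at 0.

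The kappa V makeup of each library was next compared as the share of the top segment among the counts of all kappa V rows analysed, members or not. Kappa V genes without a row here, such as Igkv5-45, are not in these shares. Igkv8-16 took 92.4% (95% exact binomial interval 87.1% to 96.0%), 97.9% (96.8% to 98.7%), 92.4% (83.2% to 97.5%) and 92.0% (89.3% to 94.1%) of the kappa V counts in WT HFD libraries 1 to 4. These libraries held 158, 914, 66 and 535 kappa V counts. The share was high in each of them, including library 3, which had the fewest counts. Intervals cover counting error only.

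In the other groups the top kappa segment was another one, and the counts were far fewer. The 4 WT chow libraries held 8 to 22 kappa V counts, and the mean share of their top segment was 34.2% ± 15.0 (SD, n = 4). In HuMgat2 chow, with 7 to 20 counts, that mean was 36.1% ± 17.3 (SD, n = 4), and in HuMgat2 HFD, with 8 to 173 counts, it was 47.8% ± 26.2 (SD, n = 4). In WT HFD it was 93.7% ± 2.84 (SD, n = 4), and no library of another group reached that range. Brought to a common depth of 7 kappa V counts, a WT HFD library was expected to show 1.14 to 1.56 different segments, a WT chow library 4.11 to 5.75, a HuMgat2 chow library 4.03 to 7.00 and a HuMgat2 HFD library 2.15 to 5.50. The lower number of segments in WT HFD was thus present at equal depth.

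Igkv5-39 (ENSMUSG00000076569; GRCm39 chromosome 6, 69877408 to 69877694, minus strand, 1 exon), another kappa V segment, was the top kappa segment in 6 libraries. These were 1 WT chow library, 2 HuMgat2 chow libraries and 3 HuMgat2 HFD libraries. Its counts were 14, 144, 10 and 1 in HuMgat2 HFD libraries 9 to 12, which is 0.570, 6.37, 0.425 and 0.0448 CPM. Its counts in the other groups were 5, 1, 2 and 2 in WT chow, 2, 3, 0 and 5 in WT HFD, and 6, 7, 0 and 0 in HuMgat2 chow. The HuMgat2 HFD group overlapped each other group, and its mean of 1.85 ± 3.02 CPM (SD, n = 4) rested on library 10. In that library Igkv5-39 took 83.2% of 173 kappa V counts (95% exact binomial interval 76.8% to 88.5%). It took 51.9% of 27 counts in library 9 (31.9% to 71.3%) and 31.2% of 32 counts in library 11 (16.1% to 50.0%). In the order of mean levels per kb, Igkv8-16 (14.9 CPM per kb over the 16 libraries) and Igkv5-39 (1.99) were the first and second of all V segments analysed.

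The remaining kappa members were sparse. Igkv3-10 had 0 to 5 counts and Igkv8-27 0 to 5 counts in a library, so no difference between groups was detectable at this depth. Igkv8-27 was the top kappa segment of WT chow library 7, with 5 of 22 counts. Igkv17-121, which with 10 counts in all was no member, was on top in WT chow library 6 and HuMgat2 chow library 15.

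**Figure D2:**
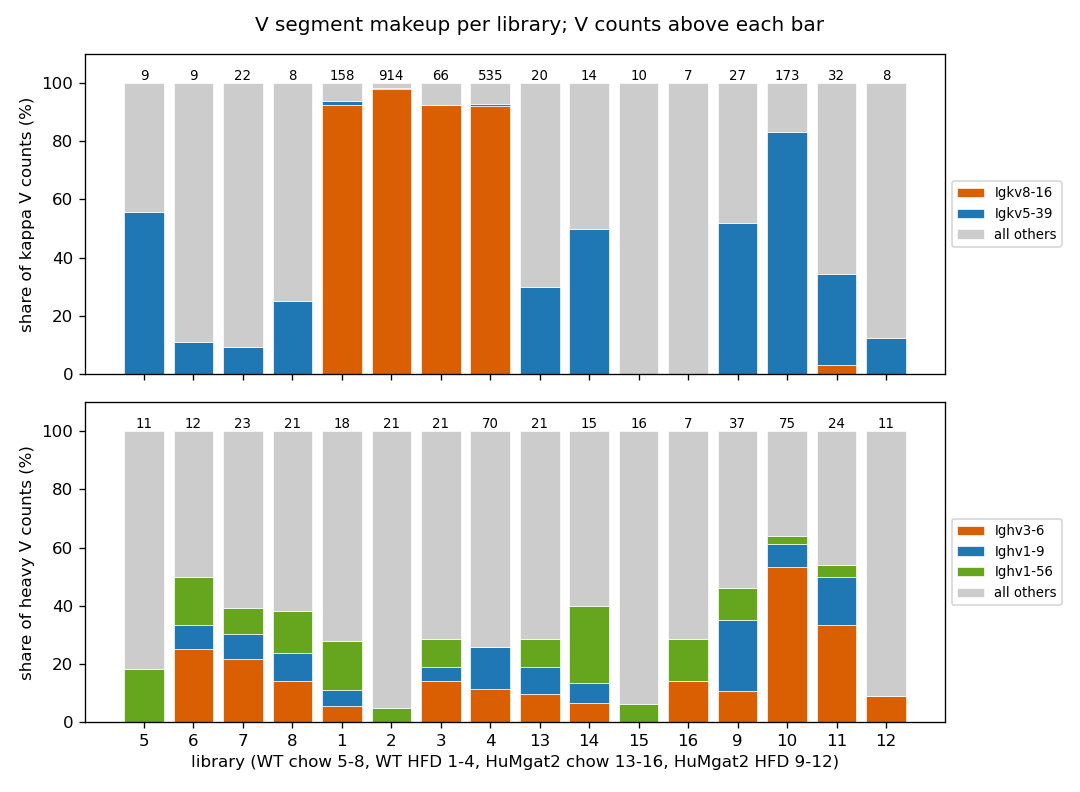
Share (%) of each named segment among the counts of all kappa V rows analysed (upper panel) and all heavy V rows analysed (lower panel) in each library. The number of V counts is above each bar. Igkv8-16 fills 92.0% to 97.9% of the kappa bar in the 4 WT HFD libraries, while no heavy segment with a row here does so in those libraries.

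Heavy chain V segments pair with the light chain in an antibody. Among the heavy V rows analysed, no single segment dominated in this way in WT HFD. Many heavy V genes, such as Ighv3-1 and Ighv1-53, had no row here, so a dominant segment among them could not be seen. The top heavy segment took 16.7%, 14.3%, 14.3% and 14.3% of the heavy V counts in libraries 1 to 4, a mean of 14.9% ± 1.19 (SD, n = 4). These libraries held 18, 21, 21 and 70 heavy V counts, far below their 158, 914, 66 and 535 kappa V counts. The top segments were Ighv1-56 in library 1, Ighv1-52 in library 2 and Ighv1-9 in library 4, with a tie of 3 segments in library 3. The mean share in the other groups was 19.8% ± 4.61 in WT chow, 32.6% ± 16.3 in HuMgat2 chow and 32.3% ± 15.3 in HuMgat2 HFD (SD, n = 4 each). Their libraries held 11 to 23, 7 to 21 and 11 to 75 heavy V counts, and a top share tends to be higher at few counts. At a common depth of 7 heavy V counts, 5.86 to 6.43 different segments were expected in WT HFD. The ranges were 5.57 to 6.62 in WT chow, 3.89 to 6.10 in HuMgat2 chow and 4.03 to 6.24 in HuMgat2 HFD. Each of these overlapped WT HFD.

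Among the heavy members, Ighv3-6 (ENSMUSG00000076672; GRCm39 chromosome 12, 114251777 to 114252202, minus strand, 2 exons) held the most counts. It had 4, 40, 8 and 1 counts in HuMgat2 HFD libraries 9 to 12, 0, 3, 5 and 3 in WT chow, 1, 0, 3 and 8 in WT HFD, and 2, 1, 0 and 1 in HuMgat2 chow. Library 10 was the highest, and the groups overlapped. There Ighv3-6 took 53.3% of 75 heavy V counts (95% exact binomial interval 41.4% to 65.0%), so library 10 held both the largest Igkv5-39 count and the largest Ighv3-6 count.

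Ighv1-9 had 10 counts in WT HFD library 4 (0.794 CPM) and at most 1 in libraries 1 to 3, against 9, 6, 4 and 0 counts in HuMgat2 HFD libraries 9 to 12. In the chow groups it had 0 to 2 counts. Ighv1-56 was even, with 0 to 4 counts in each of the 16 libraries. In HuMgat2 chow library 15, Ighv5-9-1, which was no member, took 9 of 16 heavy V counts (56.2%, 95% exact binomial interval 29.9% to 80.2%).

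The lambda genes were spread over the groups. Iglc2, the constant part of a lambda chain, had 4, 5, 12 and 6 counts in WT chow, 10, 16, 8 and 9 in WT HFD, 9, 5, 5 and 1 in HuMgat2 chow, and 8, 23, 2 and 7 in HuMgat2 HFD. Its groups overlapped in all comparisons. On HFD its level was 1.68-fold that on chow in WT (log2 0.75 ± 0.61 SE, edgeR adjusted p = 0.454) and 1.70-fold in HuMgat2 (log2 0.76 ± 0.65 SE, edgeR adjusted p = 0.486), differences that did not pass the test. Iglv2, a lambda V segment, had 0 to 6 counts in a library, with the most in library 10.

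Genes that accompany antibody secretion were examined beside the members. Jchain had 21, 12, 16 and 8 counts in WT chow and 46, 111, 28 and 71 in WT HFD. The levels were 0.667 ± 0.255 CPM (SD, n = 4) on chow and 3.41 ± 2.08 CPM (SD, n = 4) on HFD, with no overlap between the groups. Jchain rose 4.98-fold (log2 2.31 ± 0.57 SE, edgeR adjusted p = 0.0124), and log2 1.99 without library 4 (edgeR adjusted p = 0.0242). In HuMgat2 mice Jchain had 14, 17, 4 and 12 counts on chow and 30, 86, 16 and 23 on HFD (log2 1.53 ± 0.59 SE, edgeR adjusted p = 0.100), which did not pass the test. Without library 10 that difference was log2 0.76 (edgeR adjusted p = 0.442). The interaction did not pass either (log2 -0.78 ± 0.83 SE, edgeR adjusted p = 0.671), so the diet difference in Jchain was not shown to differ between genotypes. On HFD, Jchain in HuMgat2 against WT was log2 -0.99 (edgeR adjusted p = 0.200), and without library 10 it was log2 -1.77 (edgeR adjusted p = 0.0338). Without library 4 it was log2 -0.67 (edgeR adjusted p = 0.417), so a call here depended on which library was left out.

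The kappa joining segments Igkj2 and Igkj5 lie outside the naming rule and were looked at after their values were seen. Igkj2 had 5, 3, 0 and 5 counts in WT chow and 34, 87, 3 and 56 in WT HFD, so library 3 overlapped the chow group. Igkj2 was called higher on HFD in WT (log2 3.92 ± 0.95 SE, edgeR adjusted p = 0.0114), and its counts in HuMgat2 HFD libraries 9 to 12 were 4, 41, 6 and 6. It passed the filter on low counts only through libraries 1, 2, 4 and 10, where it was high. The tests of Igkj2 given here are therefore a description and support nothing. Igkj5 had 4, 13, 4 and 10 counts in WT HFD and 7, 34, 7 and 4 in HuMgat2 HFD, with at most 4 in a chow library. Library 10 was thus high for Igkj5 as well as for Jchain (86), Igkv5-39 and Ighv3-6, with no count of Igkv8-16. Between HuMgat2 and WT on HFD, Igkj2 was log2 -1.94 (edgeR adjusted p = 0.0982), and without library 10 it was log2 -3.36 (edgeR adjusted p = 0.0191). Without library 4 it was log2 -1.53 (edgeR adjusted p = 0.200), so this too depended on the library left out.

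Within WT HFD, Igkv8-16, Jchain and Igkj2 ranked the 4 libraries alike, from library 4 through 2 and 1 to 3. Over the 16 libraries the level of Jchain had a Spearman rho of 0.615 with Igkv8-16, 0.448 with Igkv5-39 and 0.656 with Igkj2. For Iglc2 the values were 0.354, 0.363 and 0.388. Igkv8-16 and Igkv5-39 were the only V segments analysed that had at least 100 counts. These points share depth and group, and 11 of the 16 values of Igkv8-16 are 0.

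**Figure D3:**
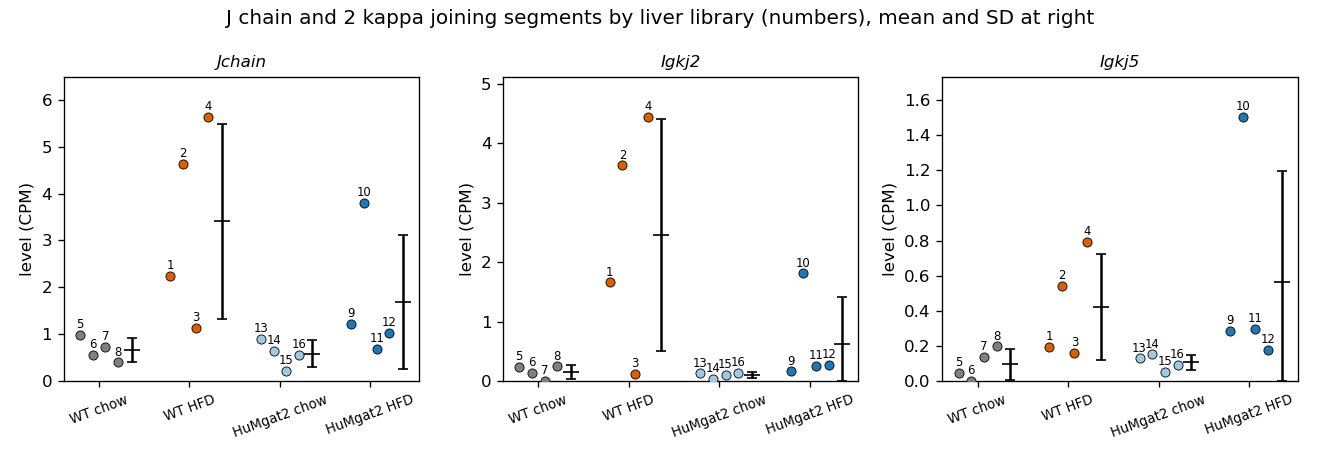
Level (CPM, linear axis from 0) of Jchain, Igkj2 and Igkj5 in each of the 16 liver libraries, with library numbers at the points and the mean with its SD, cut at 0, at the right of each group. Library 10 stands above the rest of HuMgat2 HFD in all 3 panels, and WT HFD libraries 2 and 4 are high for Jchain and Igkj2.

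Beyond the dominant segments, low-count rows were broadest in 2 libraries. The rows with under 20 counts summed to 6.75 CPM in WT HFD library 4 and 2.35 CPM in HuMgat2 HFD library 10, against 0.515 to 1.68 CPM in the other 14. At least 1 count was seen in 47 V rows in library 4, although it was the least deeply sequenced, and in 37 V rows in library 10, against 12 to 29 in the others. Library 2, with nearly as high a level of Igkv8-16 as library 4, had 29 such rows and 1.34 CPM in low-count rows. Without library 4 the mean level of WT HFD members other than Igkv8-16 was 0.890 ± 0.250 CPM (SD, n = 3), against 0.856 ± 0.349 CPM (SD, n = 4) in WT chow. With it the mean was 1.48 ± 1.20 CPM (SD, n = 4).

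**Figure D4:**
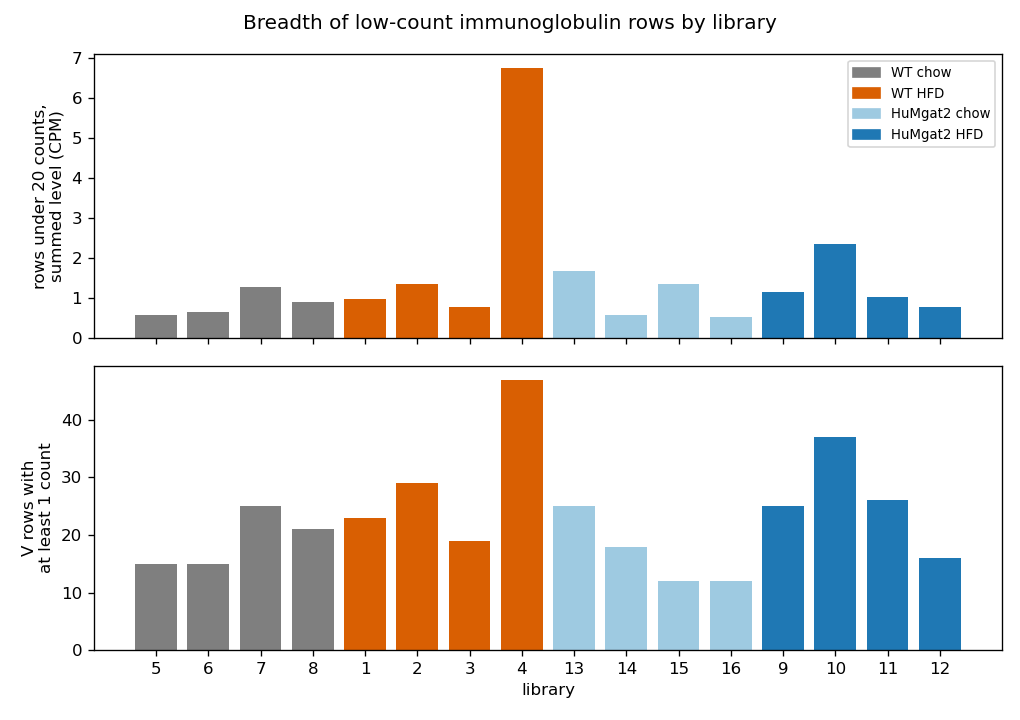
Summed level (CPM) of immunoglobulin rows with under 20 counts (upper panel) and number of V rows with at least 1 count (lower panel) in each library, coloured by group. WT HFD library 4 (6.75 CPM, 47 rows) and HuMgat2 HFD library 10 (2.35 CPM, 37 rows) are the highest.

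Markers of B cells and plasma cells were counted over whole lists, whose genes were chosen with earlier results of these data known. Of all genes tested, 8.37% were called higher and 6.74% lower on HFD in WT, and 7.56% and 6.4% in HuMgat2. On HFD, 7.21% were called higher and 7.56% lower in HuMgat2 than in WT. For the interaction, 2.61% were called higher and 2.26% lower. Of 15 plasma cell genes, 12 were tested. In WT, 3 rose on HFD and 0 fell, with a median of log2 0.36 over the 12 against 0.03 over all genes tested. They were Jchain, Prdm1 (a transcription factor of plasma cell differentiation, log2 1.71, edgeR adjusted p = 0.0318) and Xbp1 (a transcription factor of the secretory apparatus that hepatocytes also use, log2 0.73, edgeR adjusted p = 0.00780). Without library 4, Prdm1 was log2 0.94 (edgeR adjusted p = 0.106). The median over the 12 was then log2 0.21, and 3 were called higher (Jchain, Xbp1 and Fkbp11). In HuMgat2 mice 0 of the 12 rose on HFD and 1 fell, Tent5c (log2 -0.69, edgeR adjusted p = 0.00451). Without library 4, which changes the spread shared by all groups, 1 rose (Irf4) and 2 fell (Tent5c and Edem1). On HFD 2 were lower in HuMgat2 than in WT, Xbp1 (log2 -0.84, edgeR adjusted p = 0.00327) and Fkbp11, an endoplasmic reticulum chaperone (log2 -0.90, edgeR adjusted p = 0.0373). Xbp1 was also called in the interaction (log2 -1.12, edgeR adjusted p = 0.0113).

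Among the other plasma cell genes, Tnfrsf17, the receptor BCMA, had 0 or 1 count in each library, and Mzb1, a chaperone of antibody assembly, had 0 to 4. Irf4, a transcription factor that B cells also use, had 9 to 40 counts in WT HFD libraries and 6 to 12 in WT chow. Pou2af1, a B lineage coactivator, had 11 to 32 counts in WT HFD and 6 to 20 in WT chow, and neither gene was called between diets in WT. The summed plasma cell list, at 590 to 874 CPM in WT HFD and 583 to 667 CPM in WT chow, was carried by genes that the liver expresses for other purposes, such as Sdc1 with 2675 to 3393 counts in WT HFD libraries and 3033 to 3347 in WT chow.

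Cd79a and Ms4a1, which mark B cells, did not pass the test between diets in WT. Cd79a, part of the B cell receptor, stood at 1.12 ± 0.364 CPM in WT chow and 0.894 ± 0.249 CPM in WT HFD (SD, n = 4 each; log2 -0.35, edgeR adjusted p = 0.508). Ms4a1, which encodes CD20, stood at 0.753 ± 0.173 CPM in WT chow and 0.489 ± 0.0680 CPM in WT HFD (SD, n = 4 each; log2 -0.64, edgeR adjusted p = 0.238). Over the 15 B cell genes tested the median was log2 0.18 in this comparison, against 0.03 over all genes tested. Without library 4 the median over these genes was log2 0.07. Of these 15 genes, 1 rose in WT on HFD and 0 fell, where 8.37% of all genes tested were called higher. It was Cr2, a complement receptor (log2 0.77, edgeR adjusted p = 0.0414, or 0.0520 without library 4). Without library 4 the 1 gene called higher was Ralgps2. In HuMgat2, 1 rose on HFD (Ralgps2, log2 0.67, edgeR adjusted p = 0.00410) and 0 fell, where 7.56% of all genes were called higher. On HFD 1 was lower in HuMgat2 than in WT (H2-Ob, log2 -1.15, edgeR adjusted p = 0.0457, or 0.111 without library 4). Of all genes, 7.56% were called lower there. The summed B cell list reached 515 CPM in library 4, against 58.9 to 128 CPM in the other 15, through Cd74, an antigen presentation gene that macrophages also express. Without Cd74 it was 44.1 CPM in library 4 and 46.9 to 50.1 CPM in the other WT HFD libraries, all above the 36.0 to 41.3 CPM of the WT chow libraries.

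Genes that bind or move antibodies were examined as a list. Pigr, which carries polymeric antibody into bile, stood at 1268 ± 208 CPM in WT chow, 1054 ± 123 in WT HFD, 1320 ± 307 in HuMgat2 chow and 974 ± 101 in HuMgat2 HFD (SD, n = 4 each). Its difference with diet did not pass the test in WT (log2 -0.27, edgeR adjusted p = 0.314) or in HuMgat2 (log2 -0.44, edgeR adjusted p = 0.100). Of 8 tested genes of this list, 1 rose in WT on HFD, where 8.37% of all genes were called higher. It was the antibody receptor Fcgr3 (log2 1.28, edgeR adjusted p = 0.0291; log2 0.59 and 0.0780 without library 4). The median over these 8 genes was log2 0.59 in that comparison, and log2 0.16 without library 4. In HuMgat2 1 rose on HFD, the neonatal antibody receptor Fcgrt (log2 0.33, edgeR adjusted p = 0.0138), and Fcgrt was also the 1 gene called higher in HuMgat2 than in WT on HFD (log2 0.27, edgeR adjusted p = 0.0424; 0.0826 without library 4). Of 10 tested survival and homing factors, Tnfsf13b, which encodes the B cell survival factor BAFF, rose in WT on HFD (log2 1.65, edgeR adjusted p = 0.0354, or 0.0904 without library 4). The chemokine Ccl21a fell in HuMgat2 on HFD (log2 -1.47, edgeR adjusted p = 0.0370). Of all genes tested, 7.56% were called higher and 6.4% lower on HFD in HuMgat2. On HFD, 7.21% were called higher in HuMgat2 than in WT.

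Markers of other immune cells were called between diets in both genotypes. Of all genes tested, 8.37% were called higher and 6.74% lower on HFD in WT, and 7.56% and 6.4% in HuMgat2. On HFD, 7.56% were called lower in HuMgat2 than in WT. For the interaction, 2.61% were called higher and 2.26% lower. Of 12 macrophage genes, 9 rose in WT on HFD and 0 fell, and without library 4 the counts were 5 and 1. In HuMgat2, 2 rose on HFD (Gpnmb and Trem2) and 0 fell, and without library 4, which changes the spread shared by all groups, the counts were 6 and 0. For the interaction 0 of the 12 were called. The 12 summed to 262 to 995 CPM in WT HFD and 162 to 268 CPM in WT chow. Of 7 tested T cell genes, 1 rose in WT on HFD (Cd4, a T helper coreceptor that macrophages can also express, log2 1.99, edgeR adjusted p = 0.00404) and 0 fell, and on HFD 3 were lower in HuMgat2 than in WT (Lck, Cd4 and Cd3e), of which Lck was not called without library 4. Of 5 tested germinal centre genes, 1 rose in WT on HFD (Fas; 0 without library 4) and, in HuMgat2, 2 rose (Mybl1 and S1pr2) and 1 fell (Bcl6). Of 8 hepatocyte genes, 0 were called in WT and 2 fell in HuMgat2 on HFD (Cps1 and Serpina1a). Of 2 tested NK cell genes, Nkg7 rose in WT on HFD, and 0 were called there without library 4. Of 9 neutrophil genes, 1 was tested and called higher in WT on HFD, Prtn3, with 12 to 537 counts in WT HFD libraries and 0 to 3 in WT chow. Prtn3 passed the filter on low counts through WT HFD alone, so this call is a description and supports nothing. The part of these cells in the immunoglobulin values was not tested.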

How the data were processed

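The authors' deposited table gives read pair counts per gene name for 16 libraries. Per the labels' protocols, 15 mg of liver was used, RNA had an integrity number above 7, and libraries were stranded total RNA depleted of ribosomal RNA. Per the submitters' processing notes, STAR 2.7, DESeq2 1.26.0 and the build mm39 were used. Per the file headers, featureCounts 2.0.1 counted read pairs with Ensembl 103 annotation (GRCm39). Its command, per the file headers, carries no strand option and no option for reads that match several places or several genes, so reads of a gene and its antisense partner cannot be told apart. The table also gives gene lengths in bases, per the file headers.

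The 64 records are 4 per library, so each of the 16 libraries was used once. Library numbers do not repeat between groups, so no samples were paired. The labels do not say that libraries come from separate mice, so p-values measure only the spread between these libraries, which may be technical. Counts were tested with edgeR 4.0.16 (quasi-likelihood, R 4.3.3) in 1 fit of 4 groups, scaled by TMM and filtered by filterByExpr, which kept 17318 genes, with Benjamini-Hochberg adjustment over these, two-sided, at adjusted p below 0.05. The test was checked on simulated counts. Alternatives were DESeq2 1.42.0, its size factors, TMM without members, keeping all genes with a count, keeping genes whose mean reached 1 CPM, fitting the 2 groups of a comparison alone, and leaving out each library. The summed level with all rows or without Igkv8-16, and a minimum sum of 20 for top shares, were added after seeing the data. Isotype shares were not run, since no heavy chain constant gene was analysed here. Sequences were aligned with Biopython 1.88. The genes named are all members, the top V segment of each chain in any library, the 8 V segments with the highest mean level per kb, up to 4 called members per list and comparison, and Jchain, Mzb1, Cd79a, Ms4a1 and Pigr; some genes of the rule or lists are not reported here. The members and lists were chosen with earlier results of these data known.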

Additional observations from a re-analysis of the deposited data

Results flagged for a closer look

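Values were looked at again where 1 library of 4 lay far from the other 3 relative to the group's whole range, or where a difference between diets differed between genotypes in a test. The first kind was looked for in each group, in the summed levels, the 9 members, Jchain, Igkj2 and Igkj5. Single genes were included where a library of the group held at least 10 counts. Chance gives about 1 in 20 groups of the first kind for normally distributed values. For sparse counts that rate is only a guide, and some flagged values overlap, such as the summed level and Igkv5-39. In HuMgat2 HFD, library 10 lay apart for the summed level of the 9 members, which is the same value with and without Igkv8-16 (9.91 CPM, against 0.493 to 1.79 CPM). In that library Igkv5-39 stood at 6.37 CPM against 0.0448 to 0.570 CPM, Igkj2 at 1.81 CPM against 0.163 to 0.269 CPM, and Igkj5 at 1.50 CPM against 0.179 to 0.298 CPM. In WT HFD, library 4 lay apart for the rows with under 20 counts (6.75 CPM, against 0.770 to 1.34 CPM) and for Ighv1-9 (0.794 CPM, against 0 to 0.0489 CPM). Neutrophil and macrophage markers were also highest in library 4, and their part in these values was not tested. Xbp1 differed between genotypes in its response to diet (interaction log2 -1.12, edgeR adjusted p = 0.0113). It rose in WT (log2 0.73, edgeR adjusted p = 0.00780) and stood at log2 -0.39 in HuMgat2 (edgeR adjusted p = 0.137).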

How the results depend on the processing

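The count of called members was 1 in WT between diets under all 22 alternatives, and 0 on chow between genotypes under all of them. Between diets in HuMgat2 it was 2 with no filter (Igkv5-39 and Ighv3-6), and it ranged from 0 to 1 with each library left out. On HFD between genotypes it was 2 with no filter (Igkv8-16 lower, Igkv5-39 higher), and it ranged from 1 to 2 with each library left out. A group of 3 lowers the number of libraries the filter asks for, which let Igkv5-39 be tested. Without library 10, Igkv5-39 did not pass the filter and was not tested. In the interaction the count was 1 with DESeq2 and 0 to 0 with each library left out. The members were chosen by their own counts, and Igkv8-16 was highest in WT HFD and Igkv5-39 in HuMgat2 HFD. The calls of Igkv8-16, Igkv5-39 and Ighv3-6 under these alternatives are therefore a description and support nothing. The mean summed level in WT chow was 1.23 CPM with a minimum sum of 10, 0.433 CPM with 100, 0.457 CPM without the 3 most counted V segments of each library and 1.70 CPM over all rows. In WT HFD it was 0.948 CPM without those 3 segments and 1.48 CPM without Igkv8-16, and in HuMgat2 chow it was 1.80 CPM over all rows. With each library left out it ranged from 16.5 to 29.6 CPM in WT HFD and from 1.26 to 4.40 CPM in HuMgat2 HFD. Fewer segments raise the top share by construction. The top kappa share was 78.1% in WT chow, 98.1% in WT HFD and 81.1% in HuMgat2 HFD with a minimum sum of 20. With a minimum of 100 it was 100%, 99.3% and 97.7%, and with 10 it was 55.2% in HuMgat2 chow. The top heavy share was 34.6% in WT chow and 24.7% in WT HFD with a minimum of 10. With 20 it was 60.8% in WT chow, 66.4% in WT HFD, 62.5% in HuMgat2 chow and 74.5% in HuMgat2 HFD. No share could be had where a library held no such segment (HuMgat2 chow for kappa at 20 and 100, all groups for heavy at 100), and isotype shares were not run. Jchain kept its call in WT between diets under its 22 alternatives. Igkj2 did so under its 20, but its calls are a description, as said above. Prdm1 lost its call in 5 of 22, Fcgr3 in 5 of 22, Tnfsf13b in 5 of 20, Cr2 in 10 of 22, H2-Ob in 10 of 21, Fkbp11 in 6 of 22 and Ccl21a in 6 of 21. Fcgrt lost its call in 1 of 22 between diets in HuMgat2 and in 9 of 22 between genotypes on HFD. Depth limits the members other than Igkv8-16 and Igkv5-39, since 3 counts in a library are worth 0.114 to 0.238 CPM. No paired analysis was possible because the library numbers do not repeat between groups.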
